A study of Mus musculus with 12 samples.

Results

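The genes described are 10 imprinted genes of the mouse that act on growth: H19, Igf2, Dlk1, Meg3, Rian, Peg3, Mest, Plagl1, Grb10 and Ndn. They were chosen by name and found by their symbol among the 30154 genes of the deposited tables. Values were read for 7 of the 10, namely Igf2, Dlk1, Peg3, Mest, Plagl1, Grb10 and Ndn, and each of the 7 is among the 15890 genes that passed the filter on low counts. H19, Meg3 and Rian were not analysed here.

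An imprinted gene is transcribed mainly from 1 parental copy, which DNA methylation set in the egg or the sperm marks out. Igf2, Dlk1, Peg3, Mest, Plagl1 and Ndn are paternally expressed, whereas Grb10 is maternally expressed in most tissues, as are the noncoding RNAs H19, Meg3 and Rian. Many genes of this class are abundant in the fetus and silenced after birth, and in skeletal muscle several of them are known from growing myoblasts and from regeneration. The libraries measured total transcript levels, so nothing below tells the parental copies apart.

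RNA was sequenced in bulk from muscle stem cells, the cells that rebuild muscle fibres, which were sorted by flow cytometry from 3 hind limb muscles of C57BL/6J mice aged 2 to 3 months. There were 6 groups of 2 libraries each: wild type mice and Sestrin1,2 knockout mice, named for the genes of the stress-induced proteins Sestrin1 and Sestrin2, before injury (day 0) and at days 7 and 21 after it. The comparisons address how these cells differ between the genotypes at rest and during repair, and how each genotype responds to injury. The labels name neither the kind of injury, the sex, a batch nor any pooling of mice, and do not say that the 2 libraries of a group came from separate animals, so p-values measure the spread between these libraries, which may be technical.

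Libraries held 28396862 to 38950614 estimated counts. Before injury Sesn2, one of the knocked-out genes, stood at 75.1 and 84.3 CPM (counts scaled to the size of the library) for wild type against 5.47 and 7.03 CPM for knockout, and by day 7 at 44.9 and 47.4 against 2.36 and 1.92 CPM. The fitted differences of Sesn2, -3.68 (SE 1.22, adjusted p = 0.0580) and -4.42 (SE 1.31, adjusted p = 0.170), were not called on either day. Of Sesn1, the other one, the differences were smaller: before injury it stood at 70.3 and 68.6 CPM for wild type against 46.0 and 45.8 CPM for knockout, a difference of -0.60 (SE 0.28, adjusted p = 0.144) that was not called, and at day 7 its difference of -1.58 (SE 0.29, adjusted p = 0.0301) was. On day 21, replicate 1 labelled wild type held 8.92 CPM and replicate 2 labelled knockout 108 CPM, which goes against both labels for Sesn2. Sesn1 in these 2 libraries stood at 43.7 and 67.2 CPM, against 78.3 CPM in the other library labelled wild type and 41.7 CPM in the other labelled knockout, so Sesn1 too was lower in the first and higher in the second than in the other library of the same label. For that reason genotypes at day 21 are given by label only. Pax7, the defining transcription factor of muscle stem cells, lay between 3.14 and 6.77 TPM (transcripts scaled to length and library) at day 0. The 10 satellite cell markers ranged from Pax7 to Sdc4, at 160 to 184 TPM, and summed to 576 to 870 TPM. Among other cell types, the 12 fibroblast markers ranged from Pi16, at 0.621 to 3.43 TPM, to Dcn, at 4639 to 5968 TPM, and the 7 smooth muscle and pericyte markers from Kcnj8, at 0.0166 to 4.09 TPM, to Acta2, at 4695 to 7072 TPM. The 6 Schwann cell markers summed to 1826 to 2290 TPM. The immune list summed to 2032 to 3514 TPM at day 0, of which Lyz2 gave 2027 to 3509 TPM, while Cd68 was at 3.30 to 4.52 TPM and Ptprc, the defining marker of leukocytes, at 0 to 0.0422 TPM. In bulk RNA, fewer cells of a type and less RNA per cell cannot be told apart.

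The sequences below are shown to give the start regions of the genes whose levels changed most and least among the 7 at day 7. They are the 250 bases before a transcription start, written 5′ to 3′ on the strand of the gene, from RefSeq on GRCm38.p6, in which the 7 genes have 13 such promoters. CpG dinucleotides, the sites of DNA methylation, are in capitals in the first 4. Across 32851 promoters of this length, with 1 chromosome left out, the median promoter held 6 CpG. The Grb10 promoter at chr11:12037421-12037670 on the minus strand held 40, more than 98.7% of promoters, the Igf2 promoter at chr7:142658805-142659054 on the minus strand held 22, the Mest promoter at chr6:30737800-30738049 on the plus strand held 14, and the Ndn promoter at chr7:62348027-62348276 on the plus strand held 5. The start of Ndn in RefSeq lies inside the gene as the GRCm38 annotation used for positions here draws it, so its window is upstream only of the RefSeq start. No other promoter of these 4 genes held more CpG; a further Mest promoter, which starts 3 bases on, also held 14, the other Igf2 promoters held 6, 10 and 1, the other Grb10 promoter 8 and the upstream Mest promoter 7. Dlk1 and Peg3, with 1 promoter each, held 8 and 8, and Plagl1 held 19.
Grb10: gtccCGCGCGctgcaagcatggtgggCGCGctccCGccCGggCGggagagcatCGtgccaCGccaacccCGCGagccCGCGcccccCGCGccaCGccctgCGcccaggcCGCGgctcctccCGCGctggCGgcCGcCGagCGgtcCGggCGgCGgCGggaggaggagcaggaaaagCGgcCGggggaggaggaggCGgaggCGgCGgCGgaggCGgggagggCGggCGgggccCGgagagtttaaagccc
Igf2: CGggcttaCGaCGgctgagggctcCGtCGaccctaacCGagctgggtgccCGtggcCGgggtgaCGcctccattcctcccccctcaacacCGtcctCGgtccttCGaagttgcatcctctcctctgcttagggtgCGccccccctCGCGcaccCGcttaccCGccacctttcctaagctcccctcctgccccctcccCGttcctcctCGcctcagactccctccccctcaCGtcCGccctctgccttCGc
Mest: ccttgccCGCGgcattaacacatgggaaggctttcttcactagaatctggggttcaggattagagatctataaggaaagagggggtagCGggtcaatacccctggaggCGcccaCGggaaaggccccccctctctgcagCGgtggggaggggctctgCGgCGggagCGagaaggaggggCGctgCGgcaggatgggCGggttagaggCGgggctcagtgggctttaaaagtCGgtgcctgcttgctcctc
Ndn: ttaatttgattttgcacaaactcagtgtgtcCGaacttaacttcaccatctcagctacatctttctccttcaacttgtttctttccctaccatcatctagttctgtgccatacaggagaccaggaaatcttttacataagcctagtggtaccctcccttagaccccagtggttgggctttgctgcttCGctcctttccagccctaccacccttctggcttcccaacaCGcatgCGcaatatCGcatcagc

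A second Mest promoter, at chr6:30733256-30733505 on the plus strand, is shown for its E-boxes, the letters that MyoD-family factors of muscle are known to bind. Searched on both strands, CAGCTG was present in 13% of the promoters counted above and CAGGTG, which reads CACCTG on the other strand, in 17.2%. Among the 13 promoters of the 7 genes, this 1 held both, and the other 12 held neither; the E-boxes are in capitals. TATAAA, present in 12.4% of the promoters counted above, was in none of the 13. A match of letters is a description of the window and not a binding site.
Mest, upstream start: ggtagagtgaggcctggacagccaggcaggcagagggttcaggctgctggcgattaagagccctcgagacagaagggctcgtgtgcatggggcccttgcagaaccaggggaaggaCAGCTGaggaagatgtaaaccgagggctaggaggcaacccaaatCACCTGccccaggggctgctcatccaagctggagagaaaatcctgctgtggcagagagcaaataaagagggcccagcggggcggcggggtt

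Among the 7 genes analysed, introns of Igf2 and Mest also host miRNAs. Their mature sequences from RefSeq are given with the seed, bases 2 to 8, in capitals, because among the 7 the host transcripts had the largest log2 fold changes from day 0 to day 7 in both genotypes; the mature miRNAs themselves were not measured. The hosts are Mest for miR-335, at chr6:30741314-30741336 and chr6:30741354-30741375, and Igf2 for miR-483, at chr7:142654968-142654989 and chr7:142654932-142654952. The 4 seeds all differ.
miR-335-5p: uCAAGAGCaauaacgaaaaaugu
miR-335-3p: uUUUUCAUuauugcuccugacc
miR-483-5p: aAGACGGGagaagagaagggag
miR-483-3p: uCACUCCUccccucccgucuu

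At day 7 after injury, 6 of the 7 genes were higher than before injury in both genotypes, by 1.39 to 5.23 on the log2 scale, and Ndn was slightly lower. Each gene was tested with the quasi-likelihood F test of edgeR on estimated counts, with Benjamini-Hochberg adjustment over 15890 genes, and is called at an adjusted p under 0.05. In wild type 6 were called higher and 1 lower, where 47% of all tested genes were called, 25.8% as higher and 21.2% as lower. In knockout the counts were again 6 and 1, where 46.9% were called, 24.7% and 22.2%. The median change of the 7 was 2.53 in wild type and 1.85 in knockout, against 0.06 and 0.03 over all tested genes. The days were fully apart for each of the 7 in either genotype, as for 79.6% of all genes in wild type and 76.1% in knockout. The log2 fold changes below come from counts and the levels from TPM, which is per length, so that levels can be compared between genes.

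**Figure D1:**
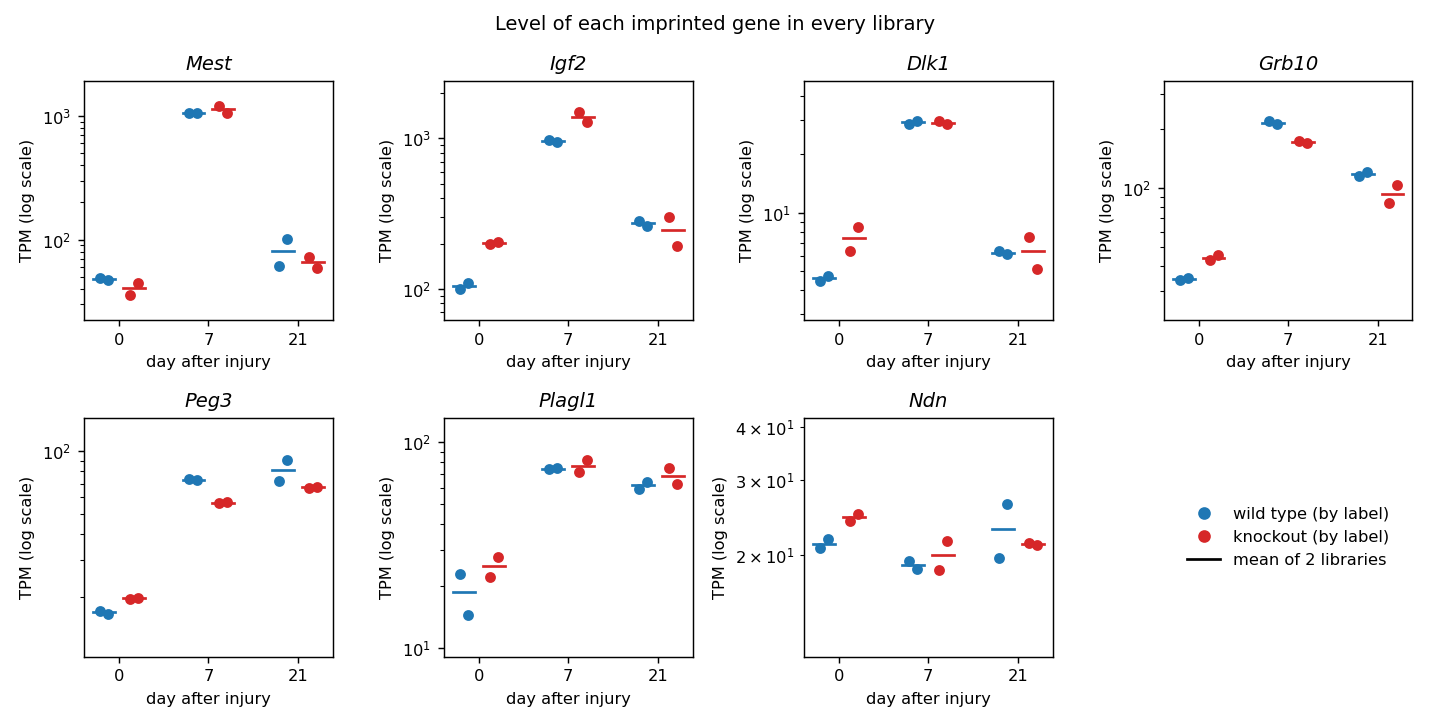
Level of each imprinted gene in each of the 12 libraries, in TPM on a log scale, against the day after injury; blue points are libraries labelled wild type, red points libraries labelled knockout, and bars mark the mean of 2 libraries. Mest lies between 35.8 and 48.7 TPM at day 0 and between 1059 and 1195 TPM at day 7, whereas Ndn stays between 18.4 and 26.2 TPM on all days.

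The first of the secreted or cell-surface factors is Igf2, the insulin-like growth factor that signals through the IGF1 receptor (chr7:142650766-142666816, minus strand). It was at 99.3 and 109 TPM in wild type and 199 and 206 TPM in knockout at day 0, and at 975 and 944 TPM and at 1503 and 1283 TPM at day 7. Every day 7 library was thus above every day 0 library, and knockout was above wild type on both days. The log2 fold change at day 7 was 2.78 (SE 0.20, adjusted p = 4.37e-06) in wild type and 2.77 (SE 0.20, adjusted p = 3.11e-06) in knockout. By its mean TPM over the 4 libraries of a day, Igf2 ranked 963 among the 15890 tested genes at day 0 and 84 at day 7.

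Dlk1 encodes a transmembrane protein with EGF-like repeats, also known as Pref-1, that holds back the differentiation of fat precursors (chr12:109452823-109463336, plus strand). Its row gave 4.47 and 4.69 TPM in wild type and 6.36 and 8.40 TPM in knockout at day 0, and 28.9 and 29.9 TPM and 29.7 and 28.6 TPM at day 7. The genotypes were apart at day 0 and overlapped at day 7. It rose by 2.53 in wild type (SE 0.18, adjusted p = 4.27e-06) and by 1.85 in knockout (SE 0.18, adjusted p = 1.67e-05). The count table holds a further row, with the symbol DLK1, whose counts equal those of Dlk1 in all 12 libraries. Some of these counts are fractional, such as 133.5 in each row for wild type replicate 1 of day 0. The levels of Dlk1 given here are those of its own row, and how reads were shared between the rows was not tested. These levels may thus understate Dlk1 beside other genes. The sum of both rows was 8.34 to 14.1 CPM at day 0, 47.3 to 51.6 CPM at day 7 and 8.87 to 12.7 CPM at day 21. In TPM the sum was 8.94 to 16.8 at day 0, 57.2 to 59.9 at day 7 and 10.3 to 15.0 at day 21.

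Grb10 encodes an adaptor protein that binds the insulin and IGF1 receptors and dampens their signal (chr11:11930508-12038683, minus strand). It was at 33.9 and 34.7 TPM in wild type and 42.8 and 45.4 TPM in knockout at day 0, and at 220 and 211 TPM and at 173 and 169.8 TPM at day 7. Knockout lay above wild type at day 0 and below it at day 7. It rose by 2.63 in wild type (SE 0.10, adjusted p = 2.54e-07), which is the 7th smallest p-value of all tested genes, and by 2.05 in knockout (SE 0.10, adjusted p = 2.89e-07).

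The transcription factors of the set rose less. Peg3, a zinc finger protein (chr7:6703892-6730431, minus strand), was at 17.2 and 16.5 TPM in wild type and 19.6 and 19.8 TPM in knockout at day 0, and at 73.4 and 72.8 TPM and at 56.3 and 57.0 TPM at day 7. It rose by 1.67 (SE 0.10, adjusted p = 1.32e-06) and 1.39 (SE 0.10, adjusted p = 2.61e-06). Plagl1, a zinc finger protein that can arrest the cell cycle (chr10:13060504-13131694, plus strand), was at 23.0 and 14.5 TPM in wild type and 22.2 and 27.7 TPM in knockout at day 0, and at 74.0 and 74.8 TPM and at 71.3 and 82.3 TPM at day 7. The wild-type replicates of Plagl1 at day 0 lay on either side of knockout replicate 1. It rose by 1.77 in wild type (SE 0.18, adjusted p = 3.66e-05) and by 1.46 in knockout (SE 0.18, adjusted p = 9.70e-05).

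Mest, which encodes a membrane protein of the endoplasmic reticulum with a hydrolase fold, changed most among the 7 (chr6:30723547-30748465, plus strand). At day 0 it was at 48.7 and 47.0 TPM in wild type and 35.8 and 44.8 TPM in knockout, and at day 7 at 1060 and 1063 TPM and at 1195 and 1059 TPM. It rose 20.5-fold in wild type, or 4.36 on the log2 scale (SE 0.22, adjusted p = 8.59e-07), and 37.4-fold in knockout, or 5.23 (SE 0.23, adjusted p = 2.70e-07). These folds come from counts, while mean TPM went from 47.8 to 1061 in wild type and from 40.3 to 1127 in knockout. Among tested genes Mest ranked 2991 by mean TPM at day 0 and 99 at day 7. The end of Mest overlaps Copg2 on the other strand over 966 exonic bases, and the labels name no kit that marks strand, so reads there cannot be told apart. Copg2 rose as well, by 1.91 in wild type (SE 0.31, adjusted p = 0.000745) and 2.096 in knockout (SE 0.31, adjusted p = 0.000420), from 14.0 to 21.96 CPM at day 0 to 57.3 to 80.8 CPM at day 7, while Mest went from 47.2 to 83.6 CPM to 1621 to 1821 CPM.

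Ndn, which encodes necdin, a growth-restraining protein of the MAGE family, has a single transcript (chr7:62346569-62350262, plus strand). It was at 20.7 and 21.7 TPM in wild type and 24.0 and 24.9 TPM in knockout at day 0, and at 19.3 and 18.5 TPM and at 18.4 and 21.5 TPM at day 7. It fell by 0.40 in wild type (SE 0.12, adjusted p = 0.0210) and by 0.43 in knockout (SE 0.12, adjusted p = 0.0150), and the days did not overlap in either genotype. In limma on log2(TPM + 1) the median change of all genes was 0.24 in wild type and 0.12 in knockout, against 0.06 and 0.03 in edgeR. With an offset for effective length, edgeR kept all 7 genes called in both genotypes. In that limma fit the call of Ndn was lost, with a change of -0.16 (adjusted p = 0.37) in wild type and -0.29 (adjusted p = 0.124) in knockout. It was also lost in wild type without replicate 2 of day 0 or without either replicate of day 7 (adjusted p between 0.0622 and 0.119), and in knockout without replicate 2 of day 0 (0.0674) or replicate 1 of day 7 (0.112).

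Markers of cell states moved with these changes; beside the counts below, 25.8% of all tested genes rose and 21.2% fell in wild type, and 24.7% and 22.2% in knockout. All 10 tested markers of myofibres and differentiation rose at day 7 in both genotypes, and their summed level went from 90.7 to 169 TPM at day 0 to 2858 to 4588 TPM. In wild type 11 of 12 cell cycle markers rose, and their sum went from 157 to 230 TPM to 746 to 806 TPM in both genotypes together. All 6 Schwann cell markers fell in both genotypes, with sums of 1826 to 2290 TPM at day 0 and 259 to 371 TPM at day 7. The sum of the 7 smooth muscle and pericyte markers was 5047 to 7753 TPM and then 2175 to 3182 TPM. Of this, Acta2 gave 4695 to 7072 TPM and then 1932 to 2936 TPM. In wild type 1 of the 7 rose and 3 fell, and in knockout 1 rose and 5 fell. The sum of the 10 satellite cell markers was 576 to 870 TPM and then 735 to 890.2 TPM. In wild type 3 of the 10 rose and 3 fell, and in knockout 5 rose and 3 fell. Of 12 fibroblast markers 6 rose and 4 fell in each genotype, with Col3a1 at 171 to 273 TPM and then 4149 to 5010 TPM. Of 7 tested immune markers 4 rose in wild type and 5 in knockout, among them Ptprc, which stood at 0.241 to 3.48 TPM at day 7, while Lyz2 fell and the sum of the list was 350 to 517 TPM. Of 7 tested skin markers 6 fell in wild type, while in knockout edgeR called 0. In knockout 2 of them had an unadjusted p under 0.05, as for 53.9% of all genes, and DESeq2 called 3, as for 48.6%. The part of these shifts in the changes of the imprinted genes was not tested.

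**Figure D2:**
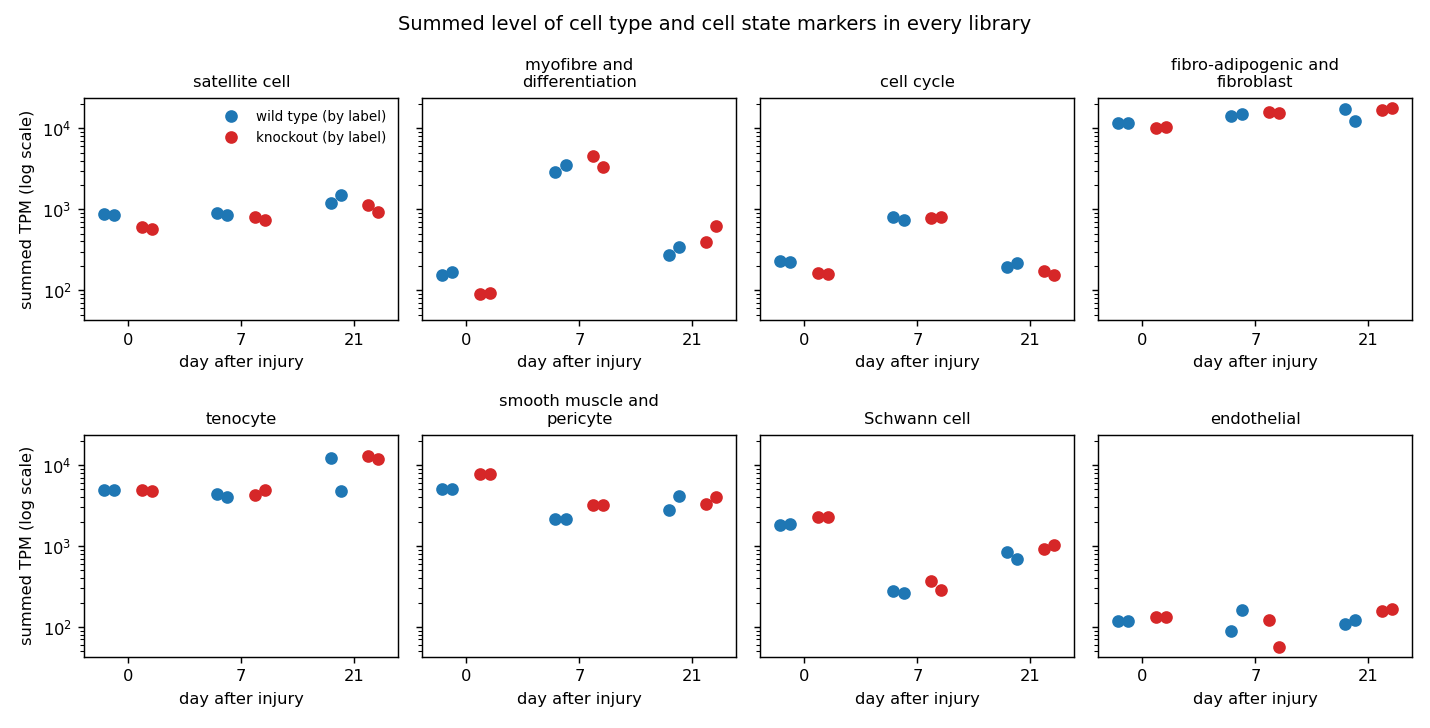
Summed TPM of 8 fixed marker lists in each of the 12 libraries, on a log scale, against the day after injury, with libraries labelled wild type in blue and knockout in red. Differentiation and cell cycle markers are highest at day 7, when Schwann cell markers are lowest.

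At day 21, Mest, Igf2, Dlk1, Grb10 and Plagl1 were below their day 7 levels and Peg3 and Ndn slightly above. Against day 7, with the genotypes averaged, 5 were lower and 2 higher, where 56.8% of all tested genes were called, 28.4% in each direction. Against day 0, 5 were still higher and none was lower, where 45.9% of genes were called, 25% as higher and 20.8% as lower. The median change of the 7 was -1.004 against day 7 and 0.76 against day 0, beside 0.01 and 0.02 over all genes. Against day 7 the libraries did not overlap for 4 of the 7, where this held for 46.4% of all genes, and against day 0 for 3, where it held for 30.6%.

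Dlk1 was not called against day 0. Its libraries at day 21 held 6.37 and 6.10 TPM when labelled wild type and 7.49 and 5.13 TPM when labelled knockout, within the range of day 0. It fell by 2.15 from day 7 (SE 0.13, adjusted p = 7.39e-07), and its difference from day 0 was 0.04 (SE 0.13, adjusted p = 0.846). Mest was at 60.7 and 101 TPM under the wild type label and at 72.3 and 58.8 TPM under the knockout label. It fell by 4.03 from day 7 (SE 0.16, adjusted p = 1.36e-07) and stayed 0.76 above day 0 (SE 0.14, adjusted p = 0.00159), with all 4 libraries above those of day 0 in TPM; in CPM the days overlapped, at 78.1 to 157 against 47.2 to 83.6. Igf2 was at 285 and 263 TPM and at 298 and 193 TPM, of which the last is below both knockout libraries of day 0. It fell by 2.12 (SE 0.13, adjusted p = 1.18e-06) and stayed 0.66 above day 0 (SE 0.13, adjusted p = 0.00244).

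Grb10, Plagl1 and Peg3 remained well above day 0. Grb10 was at 115 and 121 TPM in libraries labelled wild type and at 83.4 and 104 TPM in those labelled knockout, between the levels of the other days. It fell by 1.004 from day 7 (SE 0.07, adjusted p = 1.48e-06) and was 1.33 above day 0 (SE 0.07, adjusted p = 1.13e-06). Plagl1 was at 59.4 and 64.2 TPM and at 75.2 and 62.6 TPM, and was 1.24 above day 0 (SE 0.13, adjusted p = 4.16e-05). Peg3 was at 72.0 and 90.4 TPM and at 66.7 and 67.3 TPM, and was 1.72 above day 0 (SE 0.07, adjusted p = 5.75e-07), the 4th smallest p-value of all tested genes.

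Against day 7 the remaining differences at day 21 were small. Peg3 was 0.19 higher (SE 0.07, adjusted p = 0.0316), Plagl1 0.38 lower, at -0.38 (SE 0.12, adjusted p = 0.0248), and Ndn 0.25 higher (SE 0.09, adjusted p = 0.0286), with overlapping libraries for all 3. In limma on log2(TPM + 1) none of the 3 was called, with adjusted p-values of 0.0613, 0.208 and 0.171. Each of the 3 calls was also lost without single libraries of any of the days: for Peg3 adjusted p reached 0.113, without knockout replicate 1 of day 7, for Plagl1 0.112, without replicate 2 labelled knockout of day 21, and for Ndn 0.102, without knockout replicate 1 of day 7. Ndn was at 19.6 and 26.2 TPM and at 21.3 and 21.0 TPM at day 21, and its difference from day 0 was -0.16 (SE 0.09, adjusted p = 0.153).

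Cell type markers moved over the same interval. Against day 7, 11 of 12 cell cycle markers and 9 of 10 tested differentiation markers were called lower and all 6 Schwann cell markers higher, beside 28.4% of all genes in each direction. Against day 0, all 6 tenocyte markers and 9 of 10 satellite cell markers were called higher and all 6 Schwann cell markers lower, beside 25% and 20.8% of all genes. Also higher than at day 0 were 8 of 10 tested differentiation markers and 8 of 12 fibroblast markers, while 1 fibroblast marker was lower. Differentiation markers summed to 273 to 619 TPM at day 21, against 90.7 to 169 TPM at day 0. Satellite cell markers summed to 933 to 1517 TPM at day 21. Tenocyte markers summed to 11801 to 12980 TPM in 3 libraries and to 4748 TPM in replicate 2 labelled wild type, which stood apart. The part of these shifts in the levels of the imprinted genes at day 21 was not tested.

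**Figure D3:**
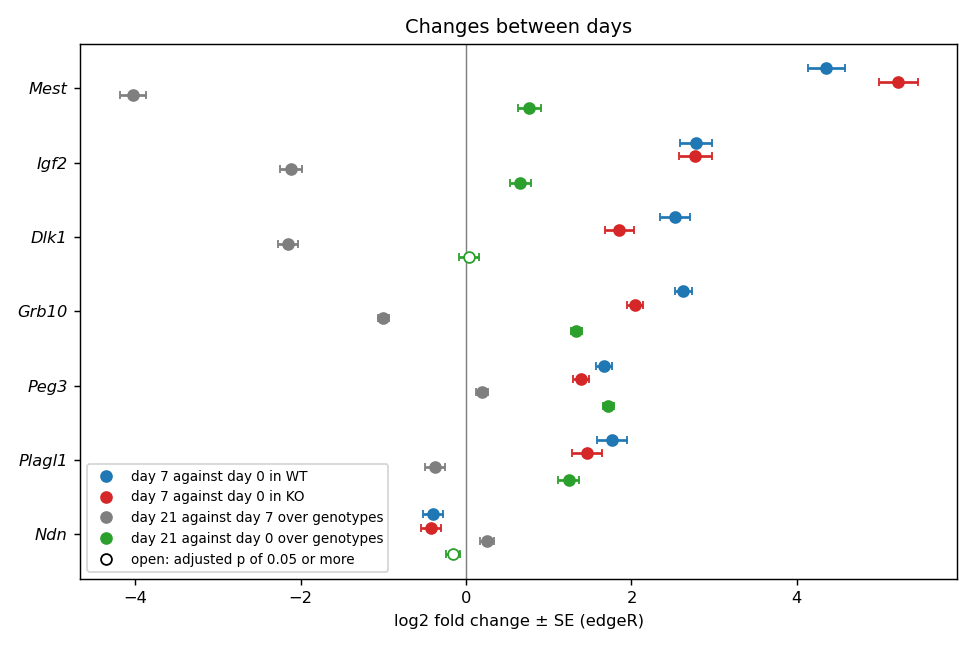
Log2 fold change of each imprinted gene between days, with the standard error from edgeR; filled points have an adjusted p under 0.05 and open points do not. All genes but Ndn lie right of 0 at day 7 in wild type and knockout, and Mest, Igf2 and Dlk1 lie between -4.03 and -2.12 at day 21 against day 7.

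On counts, Dlk1 was called higher and Mest lower in knockout than in wild type before injury, about the share called among all genes. Of the 7 genes 1 was called higher and 1 lower, where 14.8% and 12.6% of all tested genes were called, 27.4% in all. Dlk1, at 4.19 and 4.17 CPM in wild type and 6.63 and 7.07 CPM in knockout, was 0.71 higher (SE 0.18, adjusted p = 0.0154). Mest, at 83.6 and 79.4 CPM in wild type and 48.9 and 47.2 CPM in knockout, was lower, at -0.76 (SE 0.20, adjusted p = 0.0194). For each of the 7 the genotypes were fully apart in CPM, as for 75.1% of all genes. Without any 1 of the 4 libraries of day 0 neither call held, with adjusted p-values from 0.0516 to 0.0943 for Dlk1 and from 0.0680 to 0.111 for Mest.

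Igf2 at day 0 was at 46.7 and 50.9 CPM in wild type and 69.2 and 73.1 CPM in knockout, a difference of 0.54 (SE 0.19, adjusted p = 0.0531) that did not pass the threshold in edgeR and did in DESeq2 (adjusted p = 0.0231). Per length the same gene was at 99.3 and 109 TPM against 199 and 206 TPM, a larger gap: limma on log2(TPM + 1) gave 0.96 (adjusted p = 0.00431), and edgeR with an offset for effective length 0.91 (adjusted p = 0.0106). For Mest the 2 scales parted the other way. Its TPM of 48.7 and 47.0 in wild type, against 35.8 and 44.8 in knockout, gave -0.25 (adjusted p = 0.404) in limma and -0.30 (adjusted p = 0.297) with the offset, so the call of Mest at day 0 rests on the count scale. Dlk1 was at 0.58 (adjusted p = 0.0400) in limma and at 0.63 (adjusted p = 0.0764) with the offset. Grb10 was at 0.19 on counts (SE 0.10, adjusted p = 0.172), at 0.35 in limma (adjusted p = 0.0382) and at 0.31 with the offset (adjusted p = 0.0419). Plagl1, Ndn and Peg3 differed by 0.25, 0.15 and 0.05, and none was called on either scale.

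The 2 scales differ in library scaling, with TMM for counts and without it for TPM, and in length. At day 0 the median genotype difference over all genes was 0.06 in limma on log2(TPM + 1) and 0.002 in edgeR. As for length, estimated counts divided by TPM give the mean effective length of the transcripts behind a gene, and this ratio moved. Relative to its mean over the 12 libraries, it was 1.17 and 1.16 for Igf2 in wild type at day 0 and 0.902 and 0.904 in knockout, apart from each other and wider than on the other days, where it lay between 0.936 and 1.02. For Mest before injury it was 0.883 and 0.668 in knockout, against 1.06 and 1.04 in wild type. Plagl1, with 25 annotated transcripts, had 0.857 and 1.48 in the wild-type replicates of day 0. Over the 12 libraries the ratio spanned 1.93-fold for Plagl1, 1.75-fold for Mest and 1.30-fold for Igf2, against a median of 1.12-fold over the 7876 genes for which it was computed. Among these genes Plagl1 was at percentile 98.3 and Mest at percentile 96.6. Igf2 shares exons with the model Gm49394 on its own strand, and transcripts were not resolved further here.

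**Figure D4:**
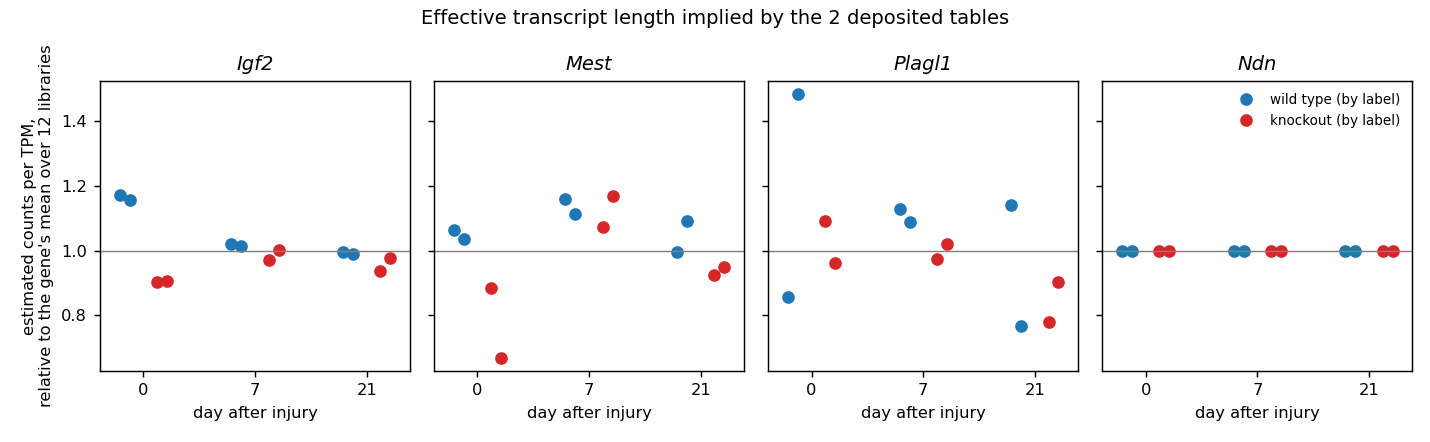
Estimated counts per TPM of Igf2, Mest, Plagl1 and Ndn in each library, relative to the mean of the gene over 12 libraries, against the day after injury. Igf2 splits by genotype at day 0, at 1.16 to 1.17 in wild type and 0.902 to 0.904 in knockout, and Ndn, with a single transcript, stays at 1.

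Cell type markers also differed between genotypes at day 0, beside 14.8% of all genes that were higher and 12.6% that were lower in knockout. Cell cycle markers summed to 230 and 221 TPM in wild type and 161 and 157 TPM in knockout, with 9 of 12 called lower. Satellite cell markers summed to 870 and 860.2 TPM against 600.1 and 576 TPM, with 7 of 10 called lower, while smooth muscle and pericyte markers summed to 5058 and 5047 TPM against 7753 and 7746 TPM, with 4 of 7 called higher. All 7 tested skin and sebaceous markers were lower in knockout, with sums of 319 and 338 TPM in wild type and 94.0 and 85.2 TPM in knockout. Also lower were 4 of 12 fibroblast, 3 of 10 tested differentiation and 2 of 6 tenocyte markers, while 2 of 6 Schwann cell and 1 of 8 endothelial markers were higher. Of the tested immune markers 0 were called, and the list summed to 2032 and 2049 TPM in wild type and 3514 and 3406 TPM in knockout. The part of these shifts in the differences of Dlk1, Mest and Igf2 was not tested.

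At day 7 none of the 7 genes was called between the genotypes by edgeR, where 1.76% of all tested genes were called, 1.08% as higher and 0.68% as lower. At an unadjusted p under 0.05 there were 3, as for 14.3% of all genes, DESeq2 called 1, as for 4.95%, and limma on log2(TPM + 1) called 0, as against 0.989%. Grb10, at 734 and 681 CPM in wild type and 557 and 518 CPM in knockout, differed by -0.40 (SE 0.09, adjusted p = 0.0698), and DESeq2 called it at -0.38 (adjusted p = 0.00320). Igf2, at 345 and 326 CPM in wild type and 515 and 458 CPM in knockout, differed by 0.54 (SE 0.18, adjusted p = 0.206), the same size as at day 0 on counts; per length the difference was 0.53 in limma (adjusted p = 0.197) beside 0.96 at day 0. Peg3, at 337 and 318 CPM against 259 and 298 CPM, differed by -0.23 (SE 0.10, adjusted p = 0.296). The genotypes were fully apart for these 3 and Mest, as for 47.4% of all genes. In a model of days 0 and 7 only, which leaves out the doubtful day 21 libraries, both Igf2 (0.53, adjusted p = 0.00341) and Grb10 (-0.40, adjusted p = 0.00589) were called, where 7.46% of all genes were.

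At day 21 no gene of the set was called by label with edgeR, where 0.0126% of all genes, 2 in number, were, 0.00629% as higher and 0.00629% as lower. At an unadjusted p under 0.05 there were 3, namely Grb10, Peg3 and Mest, as for 14.2% of all genes, DESeq2 called 2, as for 2.96%, and limma on log2(TPM + 1) called 0. Grb10, at 356 and 363 CPM under the wild type label against 243 and 283 CPM under the knockout label, differed by -0.45 (SE 0.10, adjusted p = 0.134). Peg3, at 365 and 410 CPM against 314 and 299.8 CPM, differed by -0.33 (SE 0.10, adjusted p = 0.201). For these 2 the libraries did not overlap by label, as for 38% of all genes. Igf2 was at 111 and 92.1 CPM against 105 and 65.6 CPM, a difference of -0.25 (SE 0.18, adjusted p = 0.581), with overlapping labels. Without the 2 libraries that Sesn2 contradicts, which leaves 1 library per label and assumes that it varies like the other groups, Grb10 differed by -0.57 (adjusted p = 0.00746), Mest by -0.63 (adjusted p = 0.00294) and Igf2 by 0.20 (adjusted p = 0.352); in this fit 7.29% of all genes were called.

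**Figure D5:**
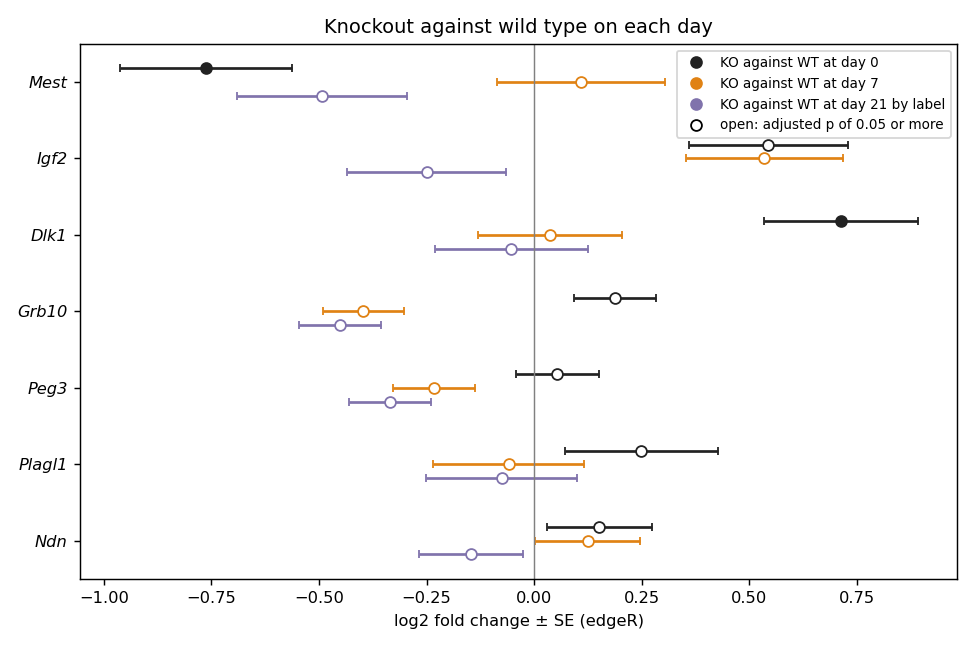
Log2 fold change of knockout against wild type for each imprinted gene on each day, with the standard error from edgeR; filled points have an adjusted p under 0.05. Only Dlk1 (0.71) and Mest (-0.76) at day 0 are filled, and Grb10 moves from 0.19 at day 0 to -0.40 at day 7 and -0.45 at day 21 by label.

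Among the 7 genes, only the response of Grb10 to injury was called as different between the genotypes, about the share called among all genes. The difference of the day 7 response, knockout minus wild type, was called for 1 of the 7 genes, where 13.5% of all tested genes were called, 6.08% as higher and 7.39% as lower. Grb10 rose less in knockout, by -0.58 on the log2 scale (SE 0.13, adjusted p = 0.0214), and the difference was -0.68 in limma on log2(TPM + 1) (adjusted p = 0.0249). Leaving out 1 of the 8 libraries of days 0 and 7 at a time ended the call for 7 of them (adjusted p between 0.0505 and 0.0875), the exception being replicate 1 of knockout at day 7. Mest rose more in knockout by 0.87 (SE 0.28, adjusted p = 0.0671) and Dlk1 less, at -0.68 (SE 0.24, adjusted p = 0.0956), neither of which passed; DESeq2 called Mest at 0.90 (adjusted p = 0.0111), but per length its difference was 0.33 (adjusted p = 0.495). Peg3 was at -0.29 (SE 0.13, adjusted p = 0.188) on counts and at -0.57 (adjusted p = 0.0484) per length in limma. The responses of Plagl1 and Ndn differed by -0.31 and -0.03, neither called. That of Igf2 differed by -0.01 (SE 0.26) on counts and by -0.43 (adjusted p = 0.287) per length in limma, called on neither scale. In the same comparison the response was called as higher in knockout for 5 of 12 cell cycle markers (41.7%), 3 of 10 satellite cell markers and 3 of 10 tested differentiation markers, and as lower for 1 satellite cell marker; their part in the difference of Grb10 was not tested.

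The pattern of the genes over the 12 libraries was compared by the root-mean-square difference of log2 CPM, each gene centred on its own mean. Within the set the closest pairs were Peg3 and Plagl1 (0.32), Igf2 and Dlk1 (0.33) and Plagl1 and Grb10 (0.39), and the farthest were Mest and Ndn (2.29). Mest varied most, with an SD of 2.22 over the 12 libraries, and Ndn least, with 0.21. Among 11003 genes outside the set with a mean log2 CPM of at least 2, those nearest to Igf2 were Mcm3 (0.29) and Mcm6 (0.33), subunits of the helicase that opens DNA for replication, followed by the row that doubles Dlk1 (0.33). Those nearest to Dlk1, that row aside, were Mcm6 (0.25) and Chaf1b (0.25), a chromatin assembly factor subunit of S phase. Mcm3 was at 13.3 to 14.3 CPM at day 0, 90.3 to 105 CPM at day 7 and 19.6 to 27.7 CPM at day 21. Those nearest to Ndn were Ift57 (0.093), Btbd10 (0.10) and Oaz2 (0.10), which varied little over the libraries. These are descriptions over libraries that share days and depth.

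Other imprinted genes went in both directions. Of 59 further imprinted genes listed, 50 were tested, and at day 7 15 rose and 16 fell in wild type, while 18 rose and 16 fell in knockout, 62% and 68% of the list, where 47% and 46.9% of all genes were called. Their median change was 0.08 in wild type and 0.09 in knockout, beside 0.06 and 0.03 over all genes. Cdkn1c, the cyclin-dependent kinase inhibitor p57, went from 268 and 270 CPM to 1430 and 1303 CPM in wild type and rose by 2.34 (SE 0.26, adjusted p = 8.55e-05). Ddc, DOPA decarboxylase and the neighbour of Grb10, rose by 3.15 in wild type (SE 0.23, adjusted p = 4.41e-06) and 4.73 in knockout (SE 0.25, adjusted p = 5.46e-07), from 0.516 to 1.59 CPM at day 0 to 12.6 to 14.3 CPM at day 7. Gatm, which makes the precursor of creatine, fell by 2.35 in wild type (SE 0.13, adjusted p = 8.59e-07). The list includes Calcr and Dcn, which are also in the marker lists of satellite cells and fibroblasts.

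Between the genotypes, 8 of the 50 were higher and 8 lower in knockout at day 0, 32% of the list, where 27.4% of all genes were called. The smallest p-value was that of Slc38a4, an amino acid transporter, at 7.62 and 8.62 CPM in wild type and 0.578 and 1.03 CPM in knockout, a difference of -3.36 (SE 0.30, adjusted p = 0.000217). At day 7 Slc38a4 was at 21.2 and 23.7 CPM in wild type and 38.7 and 42.1 CPM in knockout, and its response differed between genotypes by 4.203 (SE 0.38, adjusted p = 0.000568). Gab1, an adaptor of receptor tyrosine kinases, was 0.96 higher in knockout at day 0 (SE 0.10, adjusted p = 0.000459). At day 7 edgeR called 0 of the 50 between genotypes, with 10 at an unadjusted p under 0.05 and 2 by DESeq2, where the shares of all genes were 1.76%, 14.3% and 4.95%. At day 21 by label it called 0, with 8 and 2, where the shares were 0.0126%, 14.2% and 2.96%. The response at day 7 differed for 11 of the 50, 5 higher and 6 lower in knockout, or 22% beside 13.5% of all genes.

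The pathway through which Igf2 and Grb10 act was read from 35 genes of IGF and insulin signalling, of which 33 were tested. At day 7, 9 rose and 8 fell in wild type, and 6 rose and 13 fell in knockout, 51.5% and 57.6% of the list beside 47% and 46.9% of all genes. Igf1, the other IGF ligand, rose by 2.64 in wild type (SE 0.14, adjusted p = 8.59e-07) and 2.60 in knockout (SE 0.14, adjusted p = 5.46e-07), from 22.01 to 29.8 CPM at day 0 to 129.5 to 178 CPM at day 7. Grb14, an adaptor related to Grb10, went the other way from Grb10 and fell by 2.23 (SE 0.15, adjusted p = 2.86e-06) and 1.58 (SE 0.15, adjusted p = 1.37e-05). In knockout at day 0, 10 of the 33 were higher and 3 lower, 39.4% of the list beside 27.4% of all genes. Irs1, a docking protein of the receptors, was at 6.15 and 7.70 CPM in wild type and 14.3 and 15.1 CPM in knockout, 1.08 higher (SE 0.18, adjusted p = 0.00228), and Irs2, of the same role, was 0.69 higher (SE 0.15, adjusted p = 0.00706). Igf2r, which takes up Igf2 for degradation and is itself imprinted, was named after its values were seen and stood at 31.7 and 31.6 CPM in wild type, against 54.5 and 61.0 CPM for knockout, before injury.

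At day 7, 3 of the 33 were higher and 2 lower in knockout, 15.2% of the list beside 1.76% of all genes. Igfbp4, a binding protein of the IGFs, was 0.83 higher (SE 0.10, adjusted p = 0.00321), and Pik3r1, the regulatory subunit of PI3-kinase, was lower, at -0.53 (SE 0.09, adjusted p = 0.0231). The response at day 7 differed for 6 of the 33 (18.2%, beside 13.5% of all genes), 2 higher and 4 lower in knockout, among them Irs1 at -1.56 (SE 0.24, adjusted p = 0.00523) and Pik3r1 at -1.03 (SE 0.13, adjusted p = 0.00223). At day 21 by label edgeR called 0 of the 33, with 6 at an unadjusted p under 0.05 and 0 by DESeq2, beside the same shares of all genes, 0.0126%, 14.2% and 2.96%.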

How the data were processed

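Per the labels' protocols, RNA of sorted muscle stem cells was made into cDNA with SMART-Seq v4, and Nextera XT libraries were read from 1 end. The authors deposited estimated counts per gene, TPM values per gene and a table of batch-corrected log2 values for 21782 genes, whose batch is not named. The submitters' processing notes name kallisto 0.46.1 and the builds mm10 and GRCm38.p6. The deposited estimated counts were rounded to whole numbers, filtered with filterByExpr, scaled by TMM and fitted over all 12 libraries and 6 groups with the robust quasi-likelihood test of edgeR 4.0.16 in R 4.3.3, tested first on simulated data. P-values were adjusted by Benjamini-Hochberg over 15890 genes, and the standard error is the absolute log2 fold change divided by the square root of F. CPM are scaled by TMM, and log2 CPM used a prior count of 2.

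Alternatives were DESeq2 1.42.0, limma 3.58.1 on log2(TPM + 1) or log2(TPM + 0.1), other filters, size factors and offsets, a replicate block, and leaving out each library. Fits on days 0 and 7 alone, without both day 21 libraries that Sesn2 contradicts, and with the Dlk1 rows summed were added after seeing the data. All members are named. From each other list at most 5 genes per comparison are named, those called with the smallest adjusted p, and for Igf2, Dlk1 and Ndn the 3 nearest genes in pattern. Copg2, which overlaps a member, the cell type markers given as checks of the sorted cells at day 0 and Igf2r fall outside this rule and were chosen after their values were seen. The members and lists were chosen with earlier results of these data known. Promoters and miRNAs are from RefSeq on GRCm38.p6, with all 7 members matched, and gene positions from the GRCm38 annotation. Plots were drawn with matplotlib 3.10.9.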

Additional observations from a re-analysis of the deposited data

Results flagged for a closer look

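The response of Grb10 to injury was called as different between the genotypes by the interaction term of the edgeR fit. The day 7 response was -0.58 on the log2 scale in knockout relative to wild type (SE 0.13, adjusted p = 0.0214, 2 libraries per group). Knockout lay above wild type at day 0 in 2 of 2 libraries and below it at day 7 in 2 of 2. Leaving out any of 7 of the 8 libraries of days 0 and 7 ended the call (adjusted p between 0.0505 and 0.0875). Grb10 is 1 of the 7 genes, and 13.5% of all tested genes were called in this comparison, among them 5 of 12 cell cycle markers and 4 of 10 satellite cell markers, whose part in the result was not tested.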

How the results depend on the processing

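No called change of a member reversed under the alternatives run, but 8 differences that were not called changed sign under some. These were Igf2 in the response (8 alternatives) and at day 21 by label (2), Ndn in the response (6), Plagl1 at day 7 (6) and at day 21 by label (7), and Dlk1 at day 7 (4), at day 21 by label (3) and at day 21 against day 0 (2). Over the members, 1304 values kept their direction and side of the threshold, 72 lost the call, 56 gained it and 38 changed sign without a call; the causes were not tested. Of the 7 members, those called between genotypes at day 0 (2) numbered 1 in limma on log2(TPM + 1) without a filter, 0 with a fold minimum (a log2 change of 1 or more in size), 4 with the libraries of that day alone, 4 without both day 21 libraries that Sesn2 contradicts, and 0 to 3 leaving out 1 library. At day 7 (0) they numbered 1 in DESeq2, 1 in limma on the batch-corrected log2 values, 2 with that day alone, 2 with days 0 and 7 alone, 2 without both day 21 libraries, and 0 to 2 leaving out 1 library. At day 21 by label (0) they numbered 2 in DESeq2, 2 without both libraries and 0 to 3 leaving out 1 library, with 3 without replicate 1 labelled wild type. For the difference of the response (1) they numbered 2 each in DESeq2, with at least 10 counts in every library, with the length offset, in limma on log2(TPM + 1), log2(TPM + 0.1) and the batch-corrected values, 0 with the fold minimum, 3 with the libraries of those days alone, 3 without both libraries, and 0 to 2 leaving out 1 library. Day 21 against day 0 (5) gave 3 with the fold minimum and 5 to 6 leaving out 1 library, and day 21 against day 7 (7) gave 4 in each of the 3 limma fits on TPM, 4 with the fold minimum and 4 to 7 leaving out 1 library. Day 7 against day 0 (7) gave 6 to 7 leaving out 1 library in each genotype.

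Over all tested genes, calls between genotypes at day 0 went from 4356 to 1495 with the fold minimum, 7317 with that day alone and 1667 to 2520 without 1 library of that day. At day 7 they went from 280 to 787 in DESeq2, 825 on the batch-corrected values, 101 to 138 in limma on TPM, 164 with the length offset, 89 with the fold minimum, 429 with that day alone, 1169 with days 0 and 7 alone, 1136 without both day 21 libraries, and 15 to 619 leaving out 1 library. At day 21 by label they went from 2 to 471 in DESeq2, 176 on the batch-corrected values, 57 without a filter, 23 with at least 10 counts, 14 in unfiltered limma, 1200 without both libraries and 0 to 865 leaving out 1 library. For the difference of the response they went from 2141 to 1096 to 1356 in limma on TPM, 1095 with the fold minimum, 3887 with the libraries of those days alone, 3759 without both libraries and 582 to 2852 leaving out 1 library. With the fold minimum the day comparisons gave 3665 of 7468 in wild type, 3709 of 7450 in knockout, 1742 of 7289 and 3224 of 9028. As shares of all genes, calls at day 0 were 14.2% in unfiltered limma and 49.5% with that day alone. At day 7 they were 4.95% in DESeq2, 3.79% on the batch-corrected values and 2.88% with that day alone. The difference of the response gave 18.3% in DESeq2, 16.5% with at least 10 counts and 9.23% with the length offset. It gave 9.72%, 9.56% and 14.3% in limma on log2(TPM + 1), log2(TPM + 0.1) and the batch-corrected values, and 24.8% with those days alone.

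The replicate numbers showed no clear pairing of the libraries. Over 15 pairs of groups the correlation of same-numbered deviations lay between -0.14 and 0.07, and 0 were over 0.1. Such correlations could miss a weak pairing or an unnamed batch. With a replicate block the members called were 3 at day 0, 0 at day 7, 0 at day 21, 7 and 7 for day 7 against day 0, 1 for the difference of the response, 5 for day 21 against day 0 and 7 against day 7, where the shares of all genes were, in that order, 25.7%, 1.28%, 0.00629%, 45.3%, 45.5%, 11.3%, 44% and 55.5%; the gene gained at day 0 was Igf2 (0.54, adjusted p = 0.0448).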
